A study of Mus musculus with 34 samples.

Results

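Short exons in 9 genes of endocytosis and membrane trafficking were examined in mouse Neuro-2A (N2A) cells, a neuroblastoma line, after treatment with 27 compounds. The genes, Synj1, Scyl2, Sh3glb2, Snx14, Itsn1, Dnm2, Ap2a1, Trappc9 and Ergic3, were selected on the measured inclusion of their short exons in these libraries, so that inclusion is described here and not tested. The members are the exon events of up to 50 nt that the splicing table lists for these genes. There were 19 such exons in 8 of the 9 genes, of 8785 exons of up to 50 nt in all, and 10 of the 19 were microexons of up to 27 nt. Ap2a1 had none, and only its expression and longer exons can be given.

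N2A cells were treated for 24 h at a final 0.4% DMSO, and polyA+ RNA was sequenced in 34 libraries. DMSO alone had 3 libraries (A, B and C), the histone deacetylase (HDAC) inhibitors Vorinostat (2.5 µM), CI-994 (5 µM), BRD4884 (10 µM) and BRD6688 (10 µM) had 2 each, and every other compound had 1. The study classed 17 compounds as activators and 10 as inhibitors of microexon inclusion, from a luciferase reporter screen. It chose these compounds for sequencing by structural diversity and by RT-PCR changes in exons that depend on the splicing regulator Srrm4. The exons assayed by RT-PCR included a microexon of Ergic3 for activators. For inhibitors they included a microexon of Trappc9, which the study describes as independent of Srrm4. With several activators the study saw lower inclusion of the Ergic3 microexon. The compounds were thus not picked independently of Ergic3 inclusion. Besides the HDAC inhibitors, the activators were the kinase inhibitors A-443654 (0.25 µM), NVP-AEW-541 (1 µM), Trametinib (1 µM), Crenolanib (2 µM), SCH-772984 (2 µM) and GNF-5837 (0.5 µM), and the compounds BTB12021 (20 µM), BTB13120 (0.625 µM), RDR00572 (2.5 µM), S02045 (5 µM), BTBS00065 (2.5 µM), SEW06315 (2.5 µM) and RH01954 (2.5 µM). The inhibitors were the kinase inhibitor MK-1775 (2 µM), the DNA methyltransferase inhibitor 5-azacytidine (5 µM), AW00693 (5 µM), SPB00858 (20 µM), JFD00822 (5 µM), and T5635931, T5758020, T5963258, T5985871 and 7678804 (6.7 µM each). All results come from a single transformed line, and the labels do not say whether the DMSO libraries came from separate cultures.

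In clathrin-mediated endocytosis, the AP-2 adaptor (of which Ap2a1 encodes an alpha subunit) recruits clathrin to the plasma membrane. Scaffolds such as intersectin (Itsn1) gather the coat components, the GTPase dynamin 2 (Dnm2) cuts the vesicle from the membrane, and the phosphoinositide phosphatase synaptojanin 1 (Synj1) helps to shed the coat. Scyl2 is a kinase-like protein of clathrin-coated vesicles, Sh3glb2 is endophilin B2, Snx14 is a sorting nexin, Trappc9 is a subunit of a TRAPP tethering complex, and Ergic3 is a membrane protein of the route between endoplasmic reticulum and Golgi. Neural microexons are very short exons, often of a length that keeps the reading frame, that insert a few amino acids into proteins, many of them in synaptic and vesicle trafficking pathways.

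The sequences of the microexons on which the results turn are shown so that their length and joining sites can be seen beside the inclusion values. They were read from GENCODE vM21 transcripts in which the exon had the same length and the same flanking introns as the splicing event. Capitals mark the microexon and lower case the adjoining bases of the neighbouring exons in the spliced transcript, 5′ to 3′.
Synj1, 24 nt: gtgTTTCTGAACAGACATTACAGTCAGcat
Sh3glb2, 12 nt: aaagccacgTGTGAGGGCGATacggtgcct
Sh3glb2, 15 nt: taggcagCTCCCAGGGTGCCATatttcca
Snx14, 27 nt: gAGGTAGCCTAAGTTTGGATGATTTCCGa
Dnm2, 12 nt: cccaatcagGGGGAGATCTTGgtgatccgc
Trappc9, 27 nt: gGGGCGCAAGAAGTTCTCATTGACCCAGg
Ergic3, 15 nt: gtgcatgTCCATGCTGTGGAGAttcatga
Itsn1, 15 nt: agtcatgGTTAAAGGGGAATGGgtggatg

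Each of these exons was wholly coding in at least 1 matched transcript, and none held a stop codon in its annotated frame. The Scyl2 12-nt exon is named only. In the mm9 coordinates of the splicing table, on the minus strand, the Synj1 exon lies at chr16:90971809-90971832, the Scyl2 exon at chr10:89117080-89117091, the Sh3glb2 exons at chr2:30204746-30204757 (12 nt) and chr2:30201579-30201593 (15 nt), the Snx14 exon at chr9:88295561-88295587 and the Trappc9 exon at chr15:72872607-72872633. On the plus strand, the Dnm2 exon lies at chr9:21295102-21295113, the Ergic3 exon at chr2:155841113-155841127 and the Itsn1 exon at chr16:91842873-91842887.

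Inclusion is given as percent spliced in (PSI), the share of transcripts that hold the exon, with 1 value per library. A difference was called when the mean PSI of a compound lay at least 10 from that of DMSO and the posterior probability of that direction, from inclusion and exclusion reads, was above 0.95. The spread between libraries does not enter this probability for any compound, and a compound with 1 library has no replicate. Of the 19 exons, 16 passed the filters on coverage and balance in DMSO and at least 1 compound, and 12 passed in all 34 libraries. The exons that did not pass were the Scyl2 37-nt, Sh3glb2 24-nt and Itsn1 46-nt exons. Across libraries, 21449574 to 50551179 corrected junction reads were counted over the exon events that passed. N2A cells expressed the neural crest gene Hand2 (248 RPKM in DMSO), the neuronal genes Tubb3 (396 RPKM) and Stmn2 (175 RPKM), and, of the genes of sympathetic neurons, Isl1 (15.5 RPKM) and Dbh (11.4 RPKM), whereas Th was low (1.57 RPKM). Near 0 were Ptprc (0.06 RPKM), Col1a1 (0.02 RPKM) and Alb (0 RPKM), markers of blood, connective tissue and liver.

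Inclusion rose mostly with activators and fell mostly with inhibitors, but exon by exon the compounds differed. With activators, 47 of 263 exon-compound pairs of the member exons were called increased, in 7 exons and 16 compounds, where the share over all exons of up to 50 nt was 3.59%. With inhibitors, 29 of 152 pairs were called decreased, in 7 exons and all 10 compounds, against 5.00% of all such exons. In the other direction, 5 pairs were called decreased with activators (1.33% of all such exons) and 2 increased with inhibitors (0.710%). Because the members were selected on these values, nothing is read from their shares, and many of the exons of up to 50 nt in the table are constitutive. Both increases with inhibitors were of the Sh3glb2 12-nt exon, and neither was called without DMSO library C.

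By compound, the most calls among members were 5 decreases each with AW00693 (of 14 members that passed), T5635931 (of 16) and T5758020 (of 16), where 7.99%, 5.38% and 6.66% of all exons of up to 50 nt were called decreased. Among activators, 4 increases each were called with A-443654, BRD6688, CI-994, BTB12021 and SEW06315, with 4.31%, 4.08%, 4.65%, 4.65% and 2.58% of all such exons called increased. BTBS00065 was the activator with no increase in a member exon, where 1.81% of all such exons were called increased. JFD00822 and SPB00858 had 1 decrease each, with 2.14% and 2.21% of all such exons called decreased.

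**Figure D1:**
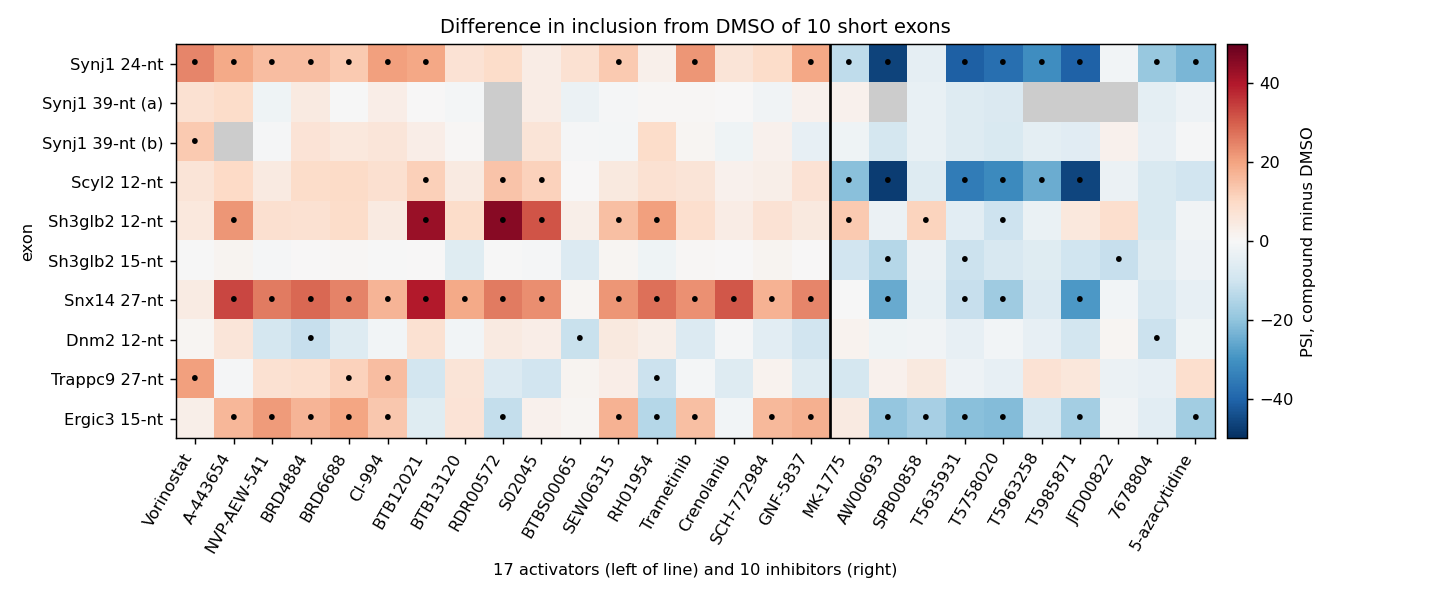
Difference in PSI from the DMSO mean (colour, in PSI) of the 10 short exons whose condition PSI spans at least 10 (rows) with each of 27 compounds (columns, activators left of the line and inhibitors right). Dots mark called differences and grey marks pairs that did not pass the filters. The Snx14 row is raised with nearly all activators, the Synj1 24-nt and Scyl2 rows reach -46.3 and -47.6 PSI with inhibitors, and the Trappc9 and Dnm2 rows show few calls.

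Synj1 held 4 of the exons. Its 24-nt microexon was at 64.8, 66.5 and 62.5 PSI in DMSO libraries A, B and C, and condition PSI spanned 18.3 to 88.9. With activators, the lowest PSI was 67.3 (RH01954), the median 77.7 and the highest 88.9 (Vorinostat), and all 17 lay above the DMSO libraries. With inhibitors, PSI ran from 18.3 (AW00693) through a median of 37.7 to 63.03 (JFD00822), and 9 of 10 lay below the DMSO libraries. The microexon rose with 10 of 17 activators, for example by 24.4 PSI with Vorinostat, 21.9 with Trametinib, 20.4 with CI-994 and 19.5 with GNF-5837. It fell with 8 inhibitors, with differences from DMSO of -46.3 PSI for AW00693, -40.7 for T5635931, -40.4 for T5985871, -37.6 for T5758020, -30.9 for T5963258, -22.9 for 5-azacytidine, -19.1 for 7678804 and -12.7 for MK-1775. RDR00572, S02045 and RH01954, with which the Sh3glb2 12-nt exon rose, gave the Synj1 microexon differences of 9.17, 3.54 and 2.72 PSI, which were not called. With the other 3 activators with which that exon rose, BTB12021, A-443654 and SEW06315, the Synj1 microexon also rose, by 19.3, 19.1 and 12.98 PSI. The HDAC inhibitor libraries were at 87.6 and 90.3 (Vorinostat), 88.3 and 81.7 (CI-994), 81.8 and 78.3 (BRD4884), and 84.9 and 70.5 PSI (BRD6688), all above DMSO. Between 97 and 228 reads stood behind each library's value.

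The other Synj1 exons were mostly skipped. The 39-nt exon at chr16:90947260-90947298 was at 13.98, 13.28 and 10.87 PSI in DMSO and was called higher with Vorinostat (26.4 and 25.3 PSI, a difference of 13.1) and with no other compound whose library passed the filters. The libraries of RDR00572 (33.8 PSI) and A-443654 (24.7 PSI) did not pass and were not assessed. With the 10 inhibitors its median was 8.19 PSI, and 8 lay below the DMSO libraries without reaching the threshold. The 39-nt exon at chr16:90949944-90949982 was at 9.92, 9.0 and 8.39 PSI in DMSO and had no call in the 22 compounds where it passed. Its lowest and highest values were 1.92 PSI (T5758020) and 18.3 PSI (A-443654). The 48-nt exon between them, the longest within the 50-nt limit, had a DMSO mean of 1.94 PSI and reached at most 8.95 (Vorinostat). The nearest exons above that limit in these genes were a 52-nt exon of Dnm2, which did not pass the filters, and a 56-nt exon of Ergic3, at 100 PSI in every condition.

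The Scyl2 12-nt microexon was at 81.7, 82.3 and 85.5 PSI in DMSO. With inhibitors it ran from 35.6 PSI (AW00693) through a median of 60.3 to 80.3 (JFD00822), and all 10 lay below the DMSO libraries. It fell with 6 of them, with differences of -47.6 PSI for AW00693, -45.9 for T5985871, -34.9 for T5635931, -31.8 for T5758020, -24.9 for T5963258 and -20.8 for MK-1775, and 5-azacytidine was just short of the threshold (-9.73 PSI). With activators the median was 90.3 PSI and 15 of 17 lay above the DMSO libraries. Starting from a high level, it rose by at least 10 PSI only with RDR00572 (97.3 PSI, 14.1 above DMSO), BTB12021 (94.9 PSI, 11.8 above) and S02045 (94.8 PSI, 11.7 above).

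The microexons of Sh3glb2 behaved unlike each other. The 12-nt exon was at 26.7, 17.9 and 9.09 PSI in the DMSO libraries, with an SD of 8.79, the widest spread in DMSO among the described exons, so the differences near 10 PSI lie within reach of it. With activators it ran from 20.98 PSI (BTBS00065) through a median of 26.4 to 63.2 (RDR00572), and 9 of 17 lay within the DMSO range. It rose by 45.4 PSI with RDR00572, 43.3 with BTB12021, 31.5 with S02045, 22.3 with A-443654, 20.5 with RH01954 and 15.03 with SEW06315. All 6 of these values lay above the highest DMSO library. The HDAC inhibitor libraries, at 21.9 to 30.3 PSI, were not called. With inhibitors it was called higher with MK-1775 (30.85 PSI, 12.97 above DMSO) and SPB00858 (29.04 PSI, 11.16 above) and lower with T5758020 (7.63 PSI, -10.25). The 15-nt exon was nearly always included in DMSO (98.5, 99.4 and 96.4 PSI) and with activators (median 98.2 PSI). With inhibitors all 10 values lay below the DMSO libraries, with a median of 89.2 PSI, and it fell with AW00693 (-14.2 PSI), JFD00822 (-11.6 PSI) and T5635931 (-10.6 PSI). T5985871 (-9.99 PSI) and MK-1775 (-9.74 PSI) lay just short of the threshold.

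The Snx14 27-nt microexon rose with more activators than any other member. In DMSO it was at 51.7, 46.9 and 42.4 PSI. With activators it ran from 47.8 PSI (BTBS00065) through a median of 71.4 to 86.6 (BTB12021), and 15 of 17 lay above the DMSO libraries and were called. The largest increases were to 86.6 PSI with BTB12021, 80.2 PSI with A-443654 and 77.96 PSI with Crenolanib. Vorinostat (51.1 and 51.4 PSI) stayed within the DMSO range, whereas BRD4884 (74.3 and 76.7 PSI), BRD6688 (71.5 and 72.3 PSI) and CI-994 (66.8 and 60.9 PSI) lay above it. The exons thus ranked the HDAC inhibitors differently, since Vorinostat gave the highest Synj1 and Trappc9 values of all compounds. With inhibitors Snx14 inclusion fell with T5985871 (-28.9 PSI), AW00693 (-25.3 PSI), T5758020 (-17.6 PSI) and T5635931 (-11.5 PSI). The 3 other short exons of Snx14, of 41, 44 and 45 nt, were at 93.0 to 100 PSI in every condition and had no call.

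Dnm2 and Itsn1, which act in scission and coat assembly, showed little change in their microexons. The Dnm2 12-nt exon was at 87.8, 86.2 and 89.2 PSI in DMSO and fell with BRD4884 (77.1 and 75.4 PSI, a difference of -11.5), BTBS00065 (-10.97 PSI) and 7678804 (-10.7 PSI). Its highest value was 95.4 PSI with BTB12021, 7.67 above DMSO and not called. The Itsn1 15-nt exon was almost fully skipped, at 0.09 PSI in the mean of DMSO, and its highest value was 4.08 PSI with RDR00572. With activators 12 of 17 lay above its DMSO range, by less than 10 PSI. Between 136 and 652 reads per library stood behind its values.

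For the genes of transport between endoplasmic reticulum, Golgi and endosome, the compounds divided differently. The Trappc9 27-nt exon was at 29.7, 31.6 and 33.2 PSI in DMSO. It rose with 3 HDAC inhibitors, by 20.4 PSI with Vorinostat (48.3 and 55.6 PSI), 15.3 with CI-994 (52.0 and 41.7 PSI) and 11.3 with BRD6688 (41.4 and 44.3 PSI), and fell by 10.8 PSI with RH01954. BTB12021, S02045 and RDR00572 also gave values below the DMSO libraries (22.3, 22.1 and 24.8 PSI), which were not called. The 10 inhibitors lay on both sides of DMSO, 5 above and 5 below, and none was called.

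The Ergic3 15-nt exon was at 33.9, 39.8 and 42.0 PSI in DMSO. It rose with 9 activators, most with NVP-AEW-541 (59.8 PSI, 21.3 above DMSO), BRD6688 (64.1 and 52.1 PSI, 19.5 above), GNF-5837 (56.4 PSI, 17.9 above) and SEW06315 (55.9 PSI, 17.4 above). It fell with 2 activators, RH01954 (24.2 PSI, -14.4) and RDR00572 (26.7 PSI, -11.8), with which the Snx14 exon rose to 74.5 and 73.0 PSI. With inhibitors it fell with T5758020 (-21.6 PSI), T5635931 (-20.9 PSI), AW00693 (-19.3 PSI), 5-azacytidine (-17.2 PSI), T5985871 (-17.1 PSI) and SPB00858 (-16.5 PSI). MK-1775 (43.2 PSI) lay above the DMSO libraries. The next exon of Ergic3, of 32 nt, was at 98.8 to 100 PSI in every condition.

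**Figure D2:**
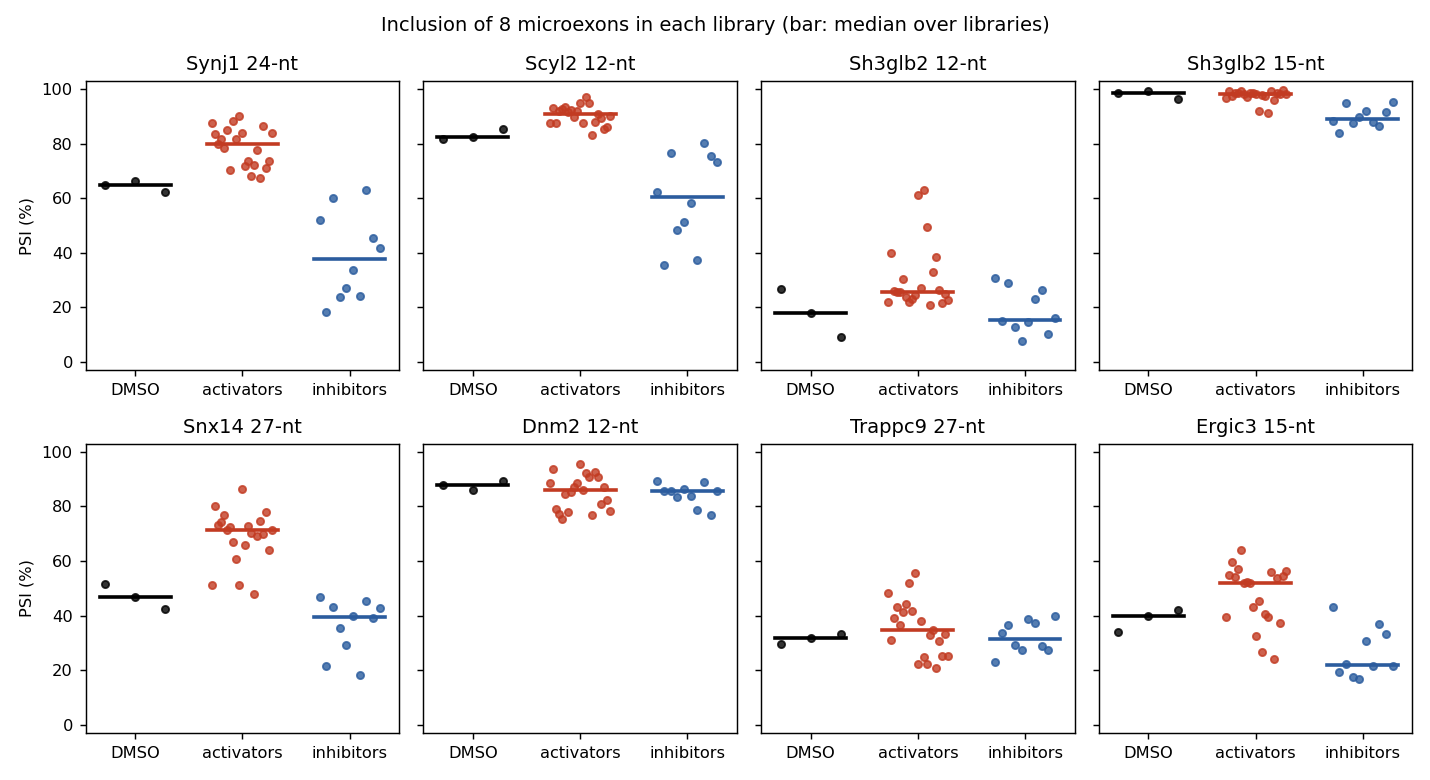
PSI (vertical axis, percent) of 8 microexons in each library that passed, for DMSO (black, 3 libraries), activators (red, 21 libraries) and inhibitors (blue, 10 libraries). Points are libraries and bars are medians over libraries. The Synj1 24-nt and Scyl2 panels show inhibitors below DMSO, the Snx14 panel shows most activators above it, and the 3 DMSO points of the Sh3glb2 12-nt exon are spread from 9.09 to 26.7.

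All 10 described exons were of a length divisible by 3. Since the genes were selected on PSI and the exons described for its span, nothing is read from this count. Among exons of up to 50 nt of all genes that passed the same filters, 558 of 881 whose condition PSI spanned at least 10 had such a length (63.3%), as had 818 of 2063 with a smaller span (39.7%). Of the 6 member exons with a smaller span, 3 had such a length.

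Exons of other genes whose PSI followed most closely over the libraries were found for each described exon as the 3 with the highest Pearson's r. These are descriptions over 30 to 34 libraries that share the same treatments. The Synj1 24-nt exon was most like a 24-nt exon of Sh3glb1, which encodes endophilin B1 (r = 0.94), a 21-nt exon of Eprs (r = 0.94) and a 21-nt exon of Odz3 (r = 0.94). The Scyl2 exon was most like exons of Gopc (24 nt, r = 0.97), Dock4 (27 nt, r = 0.96) and Abi1 (15 nt, r = 0.96). The Snx14 exon was most like exons of Psap (9 nt, r = 0.91), Ewsr1 (18 nt, r = 0.91) and Mon2 (3 nt, r = 0.90). Of the Sh3glb2 exons, that of 12 nt was nearest to Unc13a (30 nt, r = 0.82), Zmynd8 (12 nt, r = 0.79) and March7 (25 nt, r = 0.78), and that of 15 nt to Add1 (37 nt, r = 0.84), Nae1 (31 nt, r = 0.83) and Sh3glb1 (24 nt, r = 0.83). The Ergic3 exon was nearest to Eif4g1 (21 nt, r = 0.86), Ppfia1 (30 nt, r = 0.85) and Flna (24 nt, r = 0.82). The Trappc9 exon was nearest to Ptprf (33 nt, r = 0.85), Rps6ka3 (37 nt, r = 0.81) and Inpp4a (33 nt, r = 0.80). The called Synj1 39-nt exon was nearest to Zdhhc20 (36 nt, r = 0.82), Tbc1d4 (3 nt, r = 0.80) and Eml4 (33 nt, r = 0.79), and the Dnm2 exon had no close match (Mbnl2, 36 nt, r = 0.61; Ythdf3, 33 nt, r = 0.56; Zmynd8, 12 nt, r = 0.56). The remaining described exon, of 39 nt in Synj1, passed in 28 libraries, too few for this comparison.

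Exons over 50 nt of the same genes were not used in the selection. Of 182 such exons, 122 passed in DMSO and at least 1 compound, and 28 of their 3238 exon-compound pairs were called. Of these, 10 were increased (0.309%) and 18 decreased (0.556%), where 0.535% and 0.923% of all exons over 50 nt were called increased and decreased. The 28 calls fell in 5 exons, with 11 in a Sh3glb2 exon and 7 and 8 in a pair of Dnm2 exons. Where both Dnm2 exons were called, their directions were opposite, so their calls cannot be taken as separate changes. The Sh3glb2 63-nt exon (chr2:30204075-30204137), which follows the 12-nt exon in the gene, was at 64.0, 68.3 and 78.8 PSI in DMSO. It fell with 9 compounds, among them BTB12021 (-27.97 PSI), RDR00572 (-19.5 PSI), RH01954 (-18.95 PSI) and S02045 (-13.5 PSI), with which the 12-nt exon rose. It rose by 14.8 PSI with T5758020, with which the 12-nt exon fell, and by 10.1 PSI with BTB13120. The opposite movement did not hold throughout, since the 63-nt exon also fell with 7678804 (-16.4 PSI), where the 12-nt exon differed by -7.75 PSI. With SEW06315 and A-443654, with which the 12-nt exon rose, the 63-nt exon differed by 4.49 and -8.73 PSI and was not called. Its DMSO libraries spread from 64.0 to 78.8 PSI, so its differences near 10 PSI lie within reach of that spread.

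Dnm2 has a pair of 139-nt exons, at chr9:21283343-21283481 and chr9:21284851-21284989, which were at 67.9, 64.3 and 68.4 PSI and at 41.4, 40.7 and 36.7 PSI in DMSO. The upstream exon fell with RDR00572 (-23.8 PSI), BTB12021 (-20.03 PSI), MK-1775 (-17.2 PSI), RH01954 (-14.2 PSI) and S02045 (-12.4 PSI). With the same compounds, in that order, the downstream exon rose by 17.2, 22.5, 11.99, 12.2 and 12.6 PSI, and it also rose by 11.03 PSI with T5985871. CI-994 and GNF-5837 gave the reverse, with the upstream exon 11.6 and 11.1 PSI higher and the downstream exon changed by -11.7 and -10.8 PSI. The Dnm2 12-nt microexon was not called with any of these compounds, though GNF-5837 (-9.49 PSI) and T5985871 (-9.09 PSI) lay just short of the threshold. Of the Ap2a1 exons, all over 50 nt, none was called. Its 57-nt exon was at 100 PSI in every condition, and its 66-nt exon was at 1.08 PSI in DMSO and at most 3.66 PSI.

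**Figure D3:**
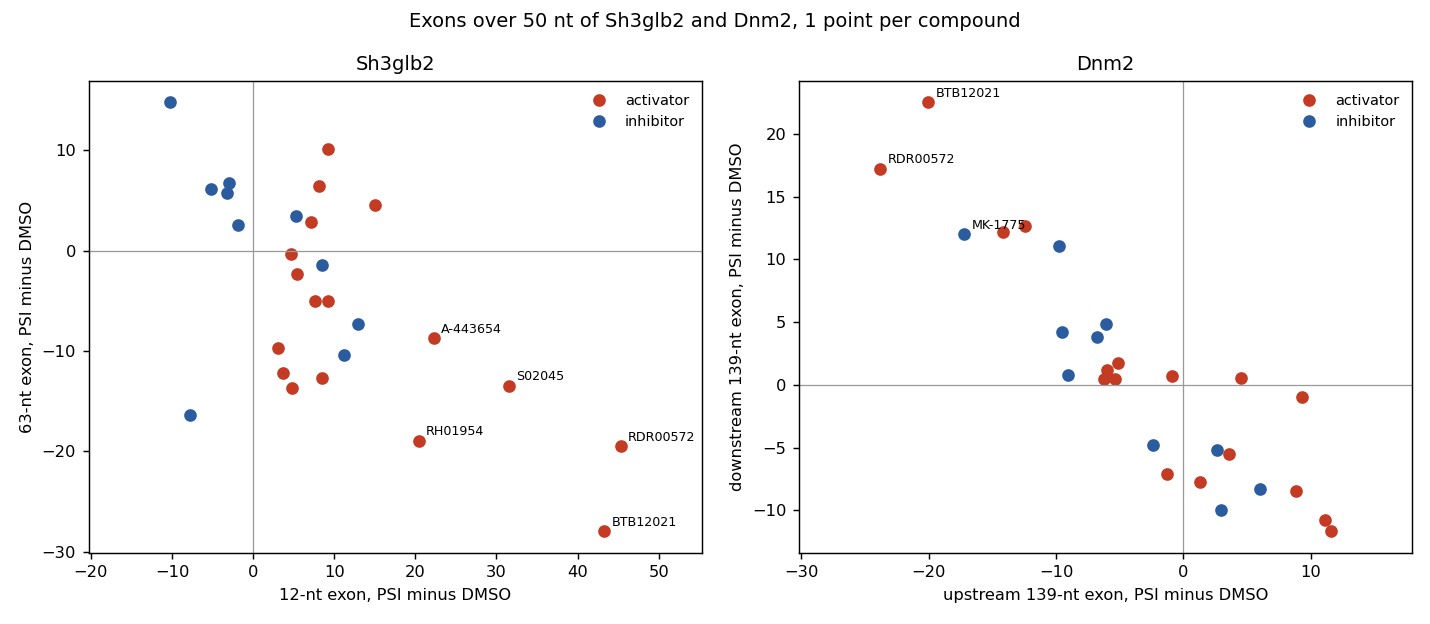
Differences in PSI from DMSO, 1 point per compound (activators red, inhibitors blue): left, the Sh3glb2 12-nt exon (horizontal axis) against its 63-nt exon (vertical axis); right, the upstream against the downstream 139-nt exon of Dnm2. RDR00572 and BTB12021 lie farthest out in both panels, with the Sh3glb2 12-nt exon 45.4 and 43.3 PSI higher and the 63-nt exon at -19.5 and -27.97 PSI. In the right panel both axes use the same libraries.

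Few of the ratios to DMSO in the expression of the 9 genes passed 2-fold. Replicates had been merged before deposit, leaving a single RPKM for a gene in each condition, so no spread can be given and no test was made. In DMSO, the levels in RPKM, which are per length, were 100 for Ap2a1 (100.01), 58.6 for Sh3glb2, 31.8 for Ergic3, 29.3 for Scyl2, 25.7 for Itsn1, 22.6 for Synj1, 22.1 for Dnm2, 12.1 for Snx14 and 11.6 for Trappc9. Of 243 gene-compound pairs, all over 5 RPKM, none was over 2-fold higher than DMSO and 2 were over 2-fold lower, on the scale of log2 of RPKM plus 0.5. Over all genes above 5 RPKM in either condition, 2.67% of pairs were over 2-fold higher and 3.86% lower. That share of higher pairs includes genes that pass 5 RPKM only with the compound. All 9 genes were over 5 RPKM in DMSO, and among all genes over that limit in DMSO 1.12% of pairs were higher. Both lower pairs were of Trappc9, at 5.28 RPKM with T5985871 and 5.27 RPKM with 5-azacytidine, a log2 ratio of -1.06 each. The Trappc9 microexon was 5.65 and 8.32 PSI above DMSO with them.

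The median log2 ratio of all genes above 5 RPKM ran from -0.44 (CI-994) to 0.00 (T5758020) and was below -0.1 with 14 compounds. Relative to it, 4 pairs were over 2-fold higher, namely Synj1 with CI-994 (1.33), BRD6688 (1.02) and BTB13120 (1.02) and Snx14 with Vorinostat (1.24), and 1 was lower, Trappc9 with 5-azacytidine (-1.05). As deposited, Synj1 stood at 42.3, 40.6 and 43.2 RPKM with these 3 compounds, and Snx14 at 22.7 RPKM with Vorinostat, where its microexon was 4.28 PSI above DMSO. With AW00693, where the Synj1 and Scyl2 microexons fell most, the log2 ratios of these genes were 0.10 and 0.23. With BTB12021, where the Snx14 microexon rose most, that of Snx14 was -0.31. Ap2a1 was lowest with CI-994 (60.4 RPKM, -0.72), Sh3glb2 with 7678804 (35.2 RPKM, -0.73) and Itsn1 with T5985871 (14.9 RPKM, -0.77). Ergic3 was lowest with A-443654 (19.2 RPKM, -0.72) and highest with T5985871 (48.6 RPKM, 0.60). Scyl2 was highest with Vorinostat (44.8 RPKM, 0.61), as was Dnm2 (31.5 RPKM, 0.51).

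**Figure D4:**
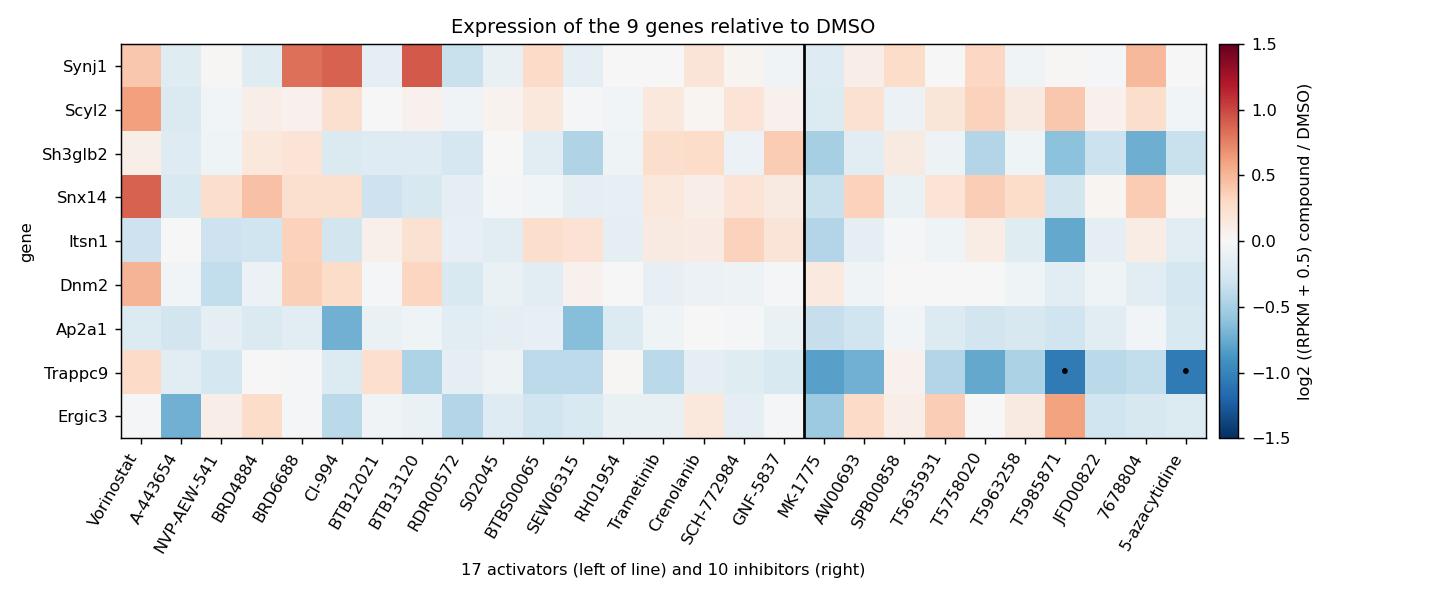
Log2 ratio of RPKM plus 0.5 in the compound over DMSO (colour) of the 9 genes (rows) with 27 compounds (columns, activators left of the line). Dots mark ratios over 2-fold, which are the 2 Trappc9 ratios of -1.06 with T5985871 and 5-azacytidine.

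Of 64 other genes of clathrin-mediated endocytosis, sorting nexins and the transport complexes of endoplasmic reticulum and Golgi, 59 were above 5 RPKM in some pair. In them 19 of 1498 gene-compound pairs were over 2-fold higher (1.27%) and 16 lower (1.07%). A gene at or under 5 RPKM in DMSO enters these pairs only with compounds where it is high, and 12 of the 19 higher pairs came from such genes. In the 55 genes over 5 RPKM in DMSO, a limit chosen after seeing the data, 7 of 1485 pairs were higher (0.471%), where 1.12% were in all genes over 5 RPKM in DMSO, and the same 16 were lower. Among the 59 genes, 4 passed 2-fold with 3 or more compounds. Fcho1, which helps to start clathrin-coated pits (7.96 RPKM in DMSO), was over 2-fold higher with the 4 HDAC inhibitors, at most by a log2 ratio of 1.29 with CI-994. Dnajc6, the neuronal auxilin of clathrin uncoating (1.90 RPKM), passed the limit with 3 compounds, Vorinostat, BRD6688 and CI-994 (1.39), and was over 2-fold higher with each. Pacsin3, an F-BAR protein (2.36 RPKM), passed it with 8 compounds and was over 2-fold higher with 7, among them Vorinostat, CI-994, BRD4884 and BRD6688, at most by 2.78 with BRD4884. Both genes were under 5 RPKM in DMSO, so they were assessed only with compounds where they were high, and their direction is no result. Rab5b, a GTPase of early endosomes (35.4 RPKM), was lower with AW00693, T5635931 and T5985871 (-1.94).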

How the data were processed

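PolyA+ RNA-seq of 34 N2A libraries was analysed. The authors made the deposited PSI values, a percent per event and library, with vast-tools from junction reads, and their quality column holds coverage and balance scores with corrected inclusion and exclusion reads. The submitters' processing notes name mm9, Salmon 0.10.2 and edgeR. The authors made the deposited RPKM values from Salmon estimates on GENCODE vM21 transcripts, merging the replicates of a condition. Their columns of fold changes, p-values and FDR against DMSO hold their own comparisons and were not used, nor was their table of splicing calls per condition. Counts per library were not used here.

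Filters were based on those of the study: coverage SOK, OK or LOW and balance OK or B1, in at least 50% of a condition's libraries. Exon events without a balance score (na) were also let through, which the study's stated filter does not list. PSI was averaged over libraries. The posterior probability came from beta distributions of the reads with a uniform prior (scipy 1.17.1, numpy 2.4.6), and the call was tested on simulated reads. A difference of at least 10 PSI with a probability above 0.95 was called, and percentages over all exons count exon-compound pairs that passed. The probabilities cover counting error within libraries only, since the spread between libraries does not enter them. The reads also carry no molecular identifiers. Ratios of RPKM used a pseudocount of 0.5 and a limit of 5 RPKM in either condition. Groups came from the sample labels, and classes and doses from the supplementary tables of the study. The study's documents differ on the number of DMSO replicates and on the dose of Vorinostat: all DMSO libraries in the labels and the dose of the supplementary table were used.

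The genes and lists were chosen with earlier results of these data known. All 9 genes are named. An exon is described where it passed in at least 2 DMSO libraries and 14 compounds and its condition PSI spanned at least 10. For likeness, the 3 exons of other genes with the highest r over at least 30 shared libraries are named, and of the 64 other pathway genes those past 2-fold with 3 or more compounds. Itsn1, Ap2a1 and the longer exons are given beside them. Alternatives were a range rule, thresholds of 15 PSI and 1.5-fold, other filters and pseudocounts, and leaving out each replicate. Of the marker genes listed for the line, 1 is not reported here.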

Additional observations from a re-analysis of the deposited data

How the results depend on the processing

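The 4 counts of called member exons were the same (47, 29, 2 and 5) under the range rule, the difference of 10 PSI alone and the stricter coverage filter. The posterior probability thus removed no member call, and dropping it is no check. Increases with activators came to 49 without the filters and to 46 with the limit of 27 nt, and the other counts stayed the same. The limit of 27 nt could take out only the 1 call in a 39-nt exon. At 15 PSI, increases with inhibitors and decreases with activators both came to 0, and calls in longer exons fell to 9 of 28. Increases with activators ran from 46 to 53 when 1 DMSO library, or replicate A or B of all 4 HDAC inhibitors, was left out. The lowest came without HDAC inhibitor replicate A, and decreases with activators ran from 4 to 7. Leaving out 1 DMSO library, decreases with inhibitors ran from 29 to 32 and increases with inhibitors from 0 to 3 (0 without DMSO replicate C). Calls in longer exons then ran from 27 to 31, and they were not recounted without HDAC inhibitor replicates. Without the 12-nt exon of Sh3glb2, a choice made after seeing the data, increases with inhibitors came to 0 and increases with activators to 41. The alternatives for longer exons were also chosen after seeing the data. In expression, a 1.5-fold limit gave 6 higher and 11 lower pairs, and centring on the median of all genes 4 and 1, while pseudocounts of 0.1 and 1 changed neither count. The median differences of the described exons over each class were recomputed without 1 DMSO library or without filters. All 80 values moved by less than 1 SD of the DMSO libraries. Leaving out 1 of 3 libraries shifts the DMSO mean by less than that SD whatever the data, so this limit is no check. Nor can the removal of filters change an exon that passed in every library. For the 12-nt exon of Sh3glb2, whose SD in DMSO was 8.79, the median over inhibitors was -2.43 PSI and turned to 1.96 without DMSO replicate A, and that over activators was 8.5 PSI, 12.88 without replicate A and 4.1 without replicate C. No paired analysis was possible because DMSO and the HDAC inhibitors share the letters A and B only as names, no result comes from a test over samples, and the other compounds have 1 library.

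The Synj1 39-nt and 48-nt exons passed the filters in 23 to 32 libraries, and why the others did not pass was not tested, nor was the cause of each moved count. Calls at depths such as the 97 to 228 reads of the Synj1 24-nt exon carry counting error in every library.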
